A study of Saccharomyces cerevisiae with 2 samples.

Results

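The respiratory chain and ATP synthase genes examined here are 38 nuclear genes of Saccharomyces cerevisiae. They were chosen by open reading frame (ORF) name from textbook knowledge of the complexes, out of 6207 ORFs on the array. The rule uses no measured ratio, though the genes were chosen with earlier results of these data known. They encode 3 NADH dehydrogenases, 4 subunits of complex II, 9 of complex III, 2 forms of cytochrome c, 9 subunits of complex IV and 11 of the ATP synthase. All 38 were spotted on the array, all 38 had a value on both arrays, and all 38 matched a named gene of the RefSeq R64 annotation.

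RNA came from a sho1 mutant in the BY4741 background, a haploid laboratory strain, grown at 24 °C in YEPD, a rich glucose medium. Sho1 is a membrane sensor of the osmotic stress (HOG) kinase pathway. A culture was divided, and 1 part received Zymolyase, a glucanase preparation that breaks down the cell wall, at 0.8 units per ml and was collected at 3 hours. The other part was left without enzyme, so both sides of the comparison carry the sho1 mutation and a wild type was not analysed here. The labels do not give the mutant allele or say whether the strain is a single isolate, and a comment attached to 1 channel of array 2 (without enzyme) speaks of hog1 where every other label has sho1. Treated and untreated RNA were hybridised together on two-colour arrays, recorded as 2 samples, with treated RNA in Cy3 on array 1 and in Cy5 on array 2. Each ORF has 1 log2 ratio per array, a scale on which 0 is equal signal from both RNAs. The labels describe more hybridisations per condition than the records used here, and do not say whether a record averages several of them. Each record is called an array, and n = 2, with every SD and interval, counts these records. The labels do not state which RNA is the numerator either. Positive values are therefore described as above 0, which likely means higher in treated cells, since both records are titled as the exposure to the enzyme. If array 1 instead holds the opposite ratio, its sign has to be turned, and results under that reading are given as "array 1 turned". Whether the arrays hold RNA of separate cultures is not labelled, so p-values reflect the spread between these hybridisations, which may be technical. Because the arrays also differ in dye orientation, each SD, p-value and difference between arrays includes any dye effect. With 1 record per orientation, such an effect cannot be told apart from other spread.

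In the inner mitochondrial membrane of yeast, electrons from NADH and succinate pass through ubiquinone to complex III, then through cytochrome c to complex IV, which reduces oxygen. Protons pumped on the way drive the ATP synthase. Yeast has no proton-pumping complex I and uses single-protein NADH dehydrogenases instead. On glucose the cells mainly ferment, and transcription of respiratory genes is held down. The activator complex Hap2/3/4/5 and the haem-dependent factor Hap1 raise it when glucose is used up or oxygen is present, and Rox1 represses genes of hypoxic growth while oxygen is present.

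None of the 38 genes passed the test. In limma's moderated two-sided test of the mean of both arrays against 0, with Benjamini-Hochberg adjustment over 5311 ORFs, 0 members were higher and 0 were lower at an adjusted p of 0.05. Across all ORFs 41 were higher, a background of 0.772%, and 0 lower, a background of 0%. At an unadjusted p of 0.05, 0 of the 38 were past the threshold, against 191 ORFs or 3.6% of all tested, and the lowest unadjusted p among members was 0.223. The robust form of limma also called 0 members. Member means ran from -0.16 to 0.16, at most 1.12-fold in either direction, while the smallest mean among the 41 called ORFs was 0.55.

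The moderated 95% intervals of the 38 means lay between -0.43 and 0.48, or 1.35-fold below to 1.39-fold above equal signal. In that fit 0 members had an interval that reached 1.5-fold (0.58 on the log2 scale). The intervals rest on a variance shared across genes, with 1 residual degree of freedom per gene and 23.5 from the shared prior. COX12 and QCR6, the members whose arrays differed most, had intervals past 1.5-fold when the prior was held to 4 degrees of freedom, and COX12 also with robust variances and with array 1 turned. The missed threshold does not show that expression was equal.

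**Figure D1:**
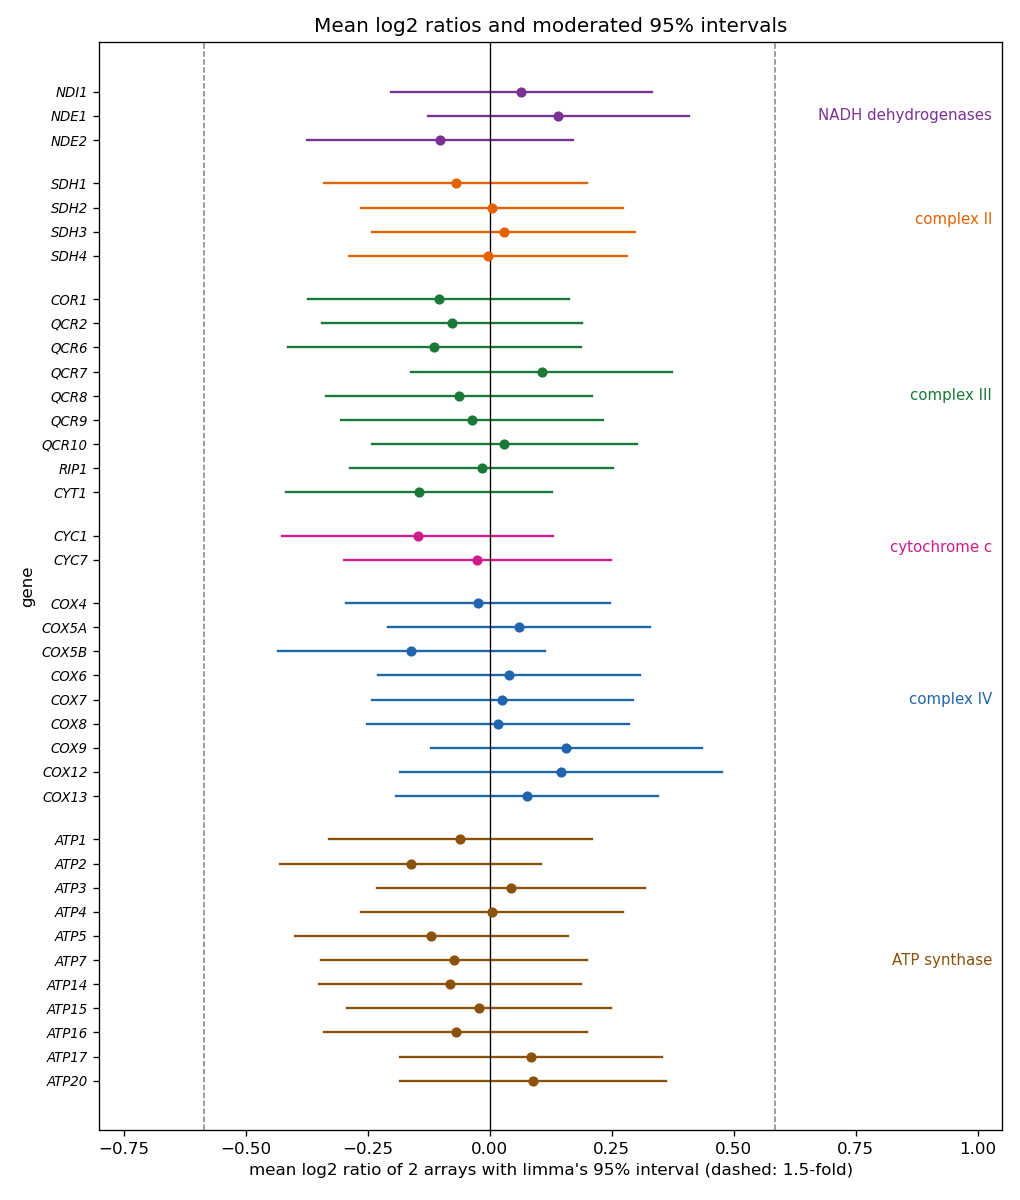
Mean log2 ratio of both arrays (points) for each member with limma's moderated 95% interval (lines), grouped and coloured by complex, with dashed lines at 1.5-fold. Every interval crosses 0, and none reaches a dashed line in this fit.

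The size of the ratios was close to that of the array as a whole. The median absolute mean was 0.070 over members and 0.067 over all ORFs tested, and 26 of 38 members (68.4%) had a mean within 0.1 of 0, against 67.3% of all ORFs. The median of the member means was -0.019, with 0.013 on array 1 and -0.023 on array 2. Over all ORFs tested the median was -0.028, with -0.029 and -0.022. Centring each array moved the member median to 0.0084, which turned its sign.

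The 2 arrays mostly gave opposite signs for a member. Of the 38, 5 were above 0 on both arrays, 6 were below 0 on both and 27 had opposite signs. Across all ORFs tested these shares were 14%, 26.8% and 59.2%. Among the members of opposite sign, 15 were above 0 on array 1 and below on array 2, and 12 the other way round. Of the 5311 ORFs tested these counts were 1549 and 1597. Over the members the array values had a Spearman rho of -0.32 (n = 38 genes) and a Pearson r of -0.42, and without COX12 and QCR6 these were -0.21 and -0.22 (n = 36). Over all ORFs rho was -0.26 and r -0.012. These coefficients are across genes of the same hybridisations and describe them only.

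**Figure D2:**
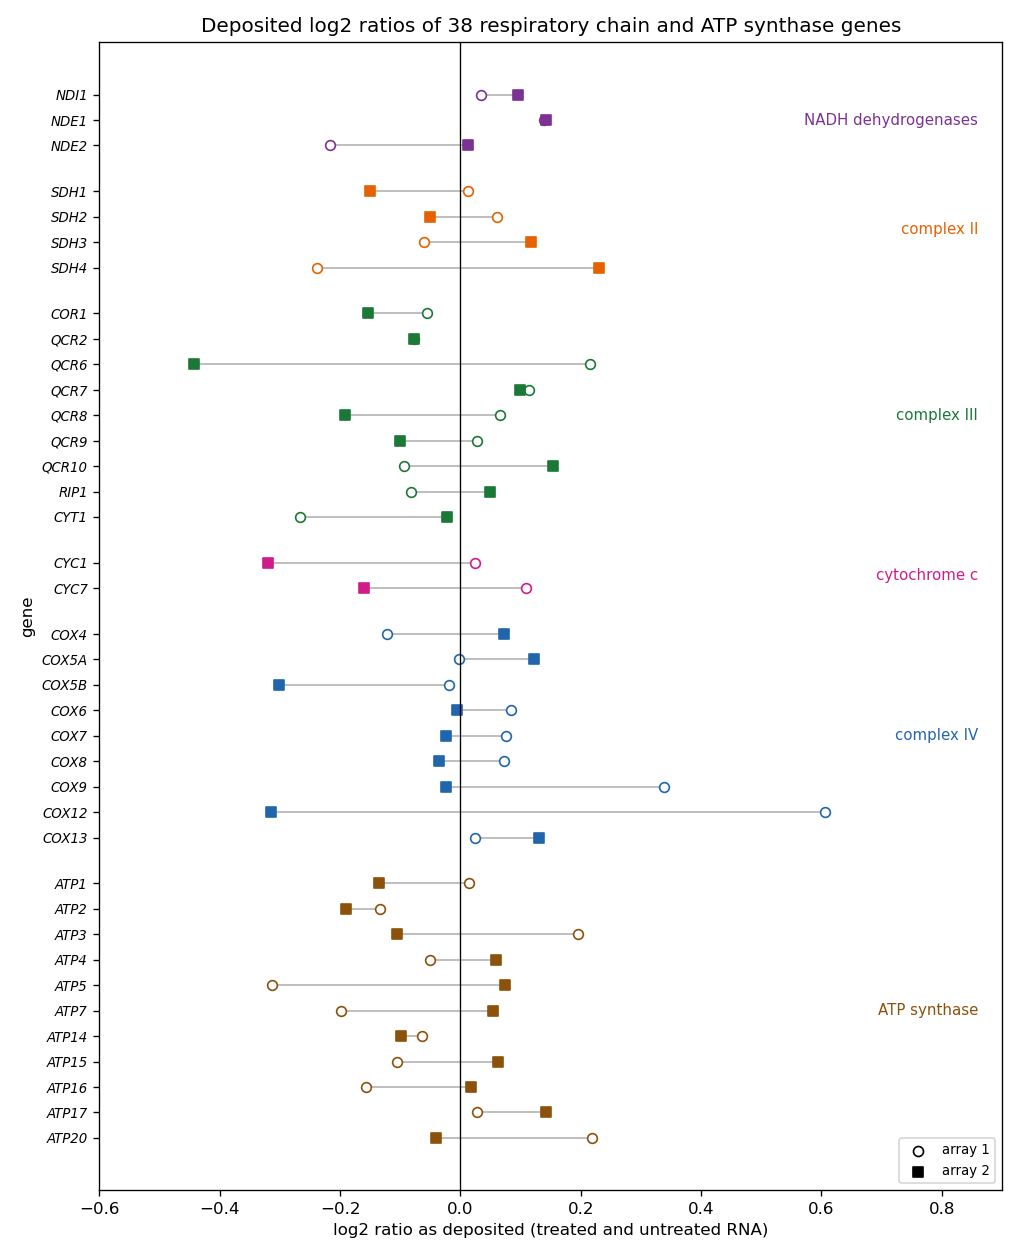
Deposited log2 ratio of each of the 38 genes on array 1 (open circles) and array 2 (filled squares), joined by a line and coloured by complex. In 27 genes the line crosses 0, and COX12 and QCR6 have the longest lines.

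The NADH dehydrogenases pass electrons from NADH to ubiquinone. NDI1 (YML120C), which oxidises NADH of the matrix, had 0.034 on array 1 and 0.095 on array 2. NDE1 (YMR145C), the main enzyme facing the intermembrane space, had 0.14 on both arrays. Both genes were thus above 0 on each array, and NDE1 had one of the closest pairs of values among members (mean 0.14 ± 0.0030, SD, n = 2 arrays; limma adjusted p = 1.00). NDE2 (YDL085W), its paralogue, had -0.22 on array 1 and 0.012 on array 2. The ratio of NDE1 exceeded that of NDE2 by 0.36 on array 1 and by 0.13 on array 2.

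Complex II, succinate dehydrogenase, links the TCA cycle to the chain. Its 4 genes all had opposite signs on the arrays, as did 59.2% of all ORFs tested. SDH1 (YKL148C), the flavoprotein subunit that oxidises succinate, had 0.012 and -0.15 on arrays 1 and 2. SDH2 (YLL041C), the iron-sulfur subunit, had 0.061 and -0.051. The catalytic subunits were thus slightly above 0 on array 1 and below on array 2. The membrane subunits showed the reverse order, with -0.060 and 0.12 for SDH3 (YKL141W), the cytochrome b subunit. SDH4 (YDR178W), the membrane anchor, had -0.24 and 0.23, values that cancel to a mean of -0.0040 ± 0.33 (SD, n = 2). Its gap between arrays lay at percentile 89.4 of all ORFs.

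Complex III, the cytochrome bc1 complex, carries electrons from ubiquinone to cytochrome c. Its median was below 0 on both arrays (-0.056 and -0.078), as was that of all ORFs tested (-0.029 and -0.022). Of its catalytic subunit genes, that of cytochrome b lies in mitochondrial DNA and was not on the array. The nuclear ones were the Rieske iron-sulfur protein gene RIP1 (YEL024W) and the cytochrome c1 gene CYT1 (YOR065W). RIP1 had -0.083 and 0.049, and CYT1 had -0.27 and -0.022. The core protein gene COR1 (YBL045C) had -0.056 and -0.15. The other core gene, QCR2 (YPR191W), had -0.077 and -0.078. Both core genes and CYT1 were below 0 on each array, and QCR2 had the smallest gap between arrays of the 38.

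The small accessory subunits of complex III did not share a direction. QCR6 (YFR033C), an acidic subunit near the cytochrome c1 side, had 0.22 on array 1 and -0.44 on array 2. That gap lay at percentile 96.2 of all ORFs, and the mean of -0.11 ± 0.47 (SD, n = 2; limma adjusted p = 1.00) is much smaller than the spread. QCR7 (YDR529C) was above 0 on both arrays, at 0.11 and 0.099. QCR8 (YJL166W) had 0.066 and -0.19, and QCR9 (YGR183C) had 0.027 and -0.10. QCR10 (YHR001W-A), a subunit next to the Rieske protein, went the other way, with -0.093 and 0.15. Over the complex, 1 gene was above 0 on both arrays, 3 were below on both and 5 had opposite signs. The shares over all ORFs tested were 14%, 26.8% and 59.2%. With array 1 turned the median moved from -0.063 to -0.0074.

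Cytochrome c, the mobile carrier between complexes III and IV, is encoded by CYC1 (YJR048W), the main aerobic form, and CYC7 (YEL039C), the form favoured in hypoxia. CYC1 had 0.024 on array 1 and -0.32 on array 2, and CYC7 had 0.11 and -0.16. Both were above 0 on array 1 and below 0 on array 2, as were 1549 of the 5311 ORFs tested. The ratio of CYC1 was below that of CYC7 on each array, with differences (CYC1 minus CYC7) of -0.085 and -0.16.

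Complex IV, cytochrome c oxidase, reduces oxygen. Its catalytic core is encoded in mitochondrial DNA and was not on the array, so these values cover its nuclear subunits. The median was 0.072 on array 1 and -0.023 on array 2. COX4 (YGL187C), a subunit required for assembly of the enzyme, had -0.12 and 0.072. COX6 (YHR051W) had 0.084 and -0.0051, COX7 (YMR256C) 0.075 and -0.023, and COX8 (YLR395C) 0.072 and -0.037. These 3 structural subunit genes had nearly the same pair of values, above 0 on array 1 and just below it on array 2. Of the 5311 ORFs tested, 1549 were above 0 on array 1 and below it on array 2. COX9 (YDL067C) had 0.34 and -0.024, and COX13 (YGL191W) had 0.023 and 0.13. COX9 had the highest mean of the 38, 0.16 ± 0.26 (SD, n = 2; limma adjusted p = 1.00), and array 1 alone carried it.

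COX12 (YLR038C), a small subunit on the intermembrane space side, had the largest single value among members. It was 0.61 on array 1 and -0.31 on array 2. The gap between arrays was larger than in the other members and lay at percentile 99.2 of all ORFs. Its mean of 0.15 ± 0.65 (SD, n = 2; limma adjusted p = 1.00) was below the spread between arrays.

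COX5A and COX5B encode alternative forms of 1 complex IV subunit, the first used with oxygen and the second made in hypoxia, when Rox1 repression is lifted. COX5A (YNL052W) had -0.0025 on array 1 and 0.12 on array 2. COX5B (YIL111W) had -0.019 and -0.30, both below 0, with a mean of -0.16 ± 0.20 (SD, n = 2; limma adjusted p = 1.00). COX5A minus COX5B was 0.017 on array 1 and 0.42 on array 2, so the arrays share the sign while 1 array holds nearly the whole difference. With n = 2 arrays an exact two-sided sign-flip permutation test of any of the 3 isoform pairs cannot give a p under 0.5. Spots of similar paralogues may also share signal, which was not tested because their sequences were not used here.

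The ATP synthase makes ATP from the proton gradient. In its catalytic head the alpha subunit gene ATP1 (YBL099W) had 0.015 on array 1 and -0.14 on array 2. The beta subunit gene ATP2 (YJR121W) had -0.13 and -0.19, and its mean of -0.16 ± 0.040 (SD, n = 2; limma adjusted p = 1.00) was the lowest of the 38. ATP2 was below 0 on both arrays with a small gap. The central stalk genes differed among themselves. ATP3 (YBR039W), the gamma subunit, had 0.19 and -0.11. ATP16 (YDL004W), the delta subunit, had -0.16 and 0.017, and ATP15 (YPL271W), the epsilon subunit, had -0.11 and 0.062.

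Of the peripheral stalk genes, which hold the head in place, the first 3 were below 0 on array 1 and above it on array 2. The same order of signs was seen in 1597 of the 5311 ORFs tested. ATP4 (YPL078C), subunit b, had -0.051 and 0.060. ATP5 (YDR298C), the oligomycin sensitivity subunit, had -0.31 and 0.074, and ATP7 (YKL016C), subunit d, had -0.20 and 0.053. ATP5 had the lowest array 1 value of the 38. ATP14 (YLR295C), subunit h, was below 0 on both arrays at -0.064 and -0.099. In the membrane part, ATP17 (YDR377W), subunit f, was above 0 on both, at 0.027 and 0.14. ATP20 (YPR020W), subunit g, which takes part in dimer formation, had 0.22 and -0.041. Over the 11 genes the median was -0.061, with -0.064 on array 1 and 0.017 on array 2.

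**Figure D3:**
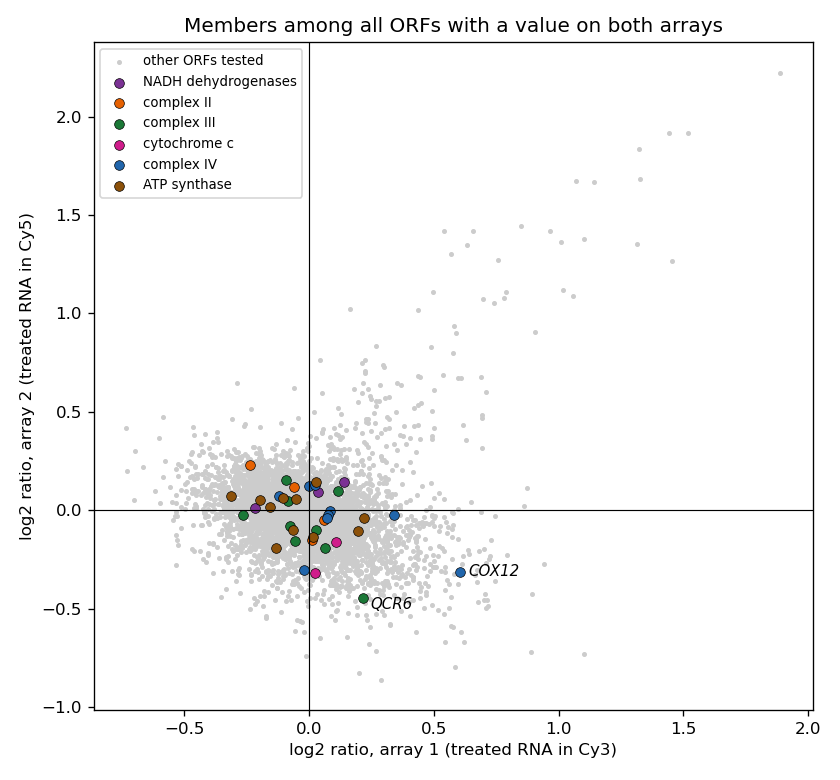
Log2 ratio on array 1 against array 2 for the 38 members (coloured by complex) and all other ORFs with both values (grey). Most members lie in the central cloud near 0, COX12 and QCR6 lie toward the lower right, and none is in the arm of ORFs with high values on both arrays.

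With array 1 turned, the mean reflects the gap between arrays instead of their shared part, with its sign that of array 2 minus array 1. It is smaller in size than the gap itself, which was -0.92 for COX12 against a mean of -0.46. In that reading limma again called 0 members at an adjusted p of 0.05, and 0 of all ORFs, a background of 0%. At an unadjusted p of 0.05, 3 members were past the threshold, against 499 ORFs or 9.4% of all tested. These were COX12 with a mean of -0.46 (limma adjusted p = 0.487), QCR6 with -0.33 (limma adjusted p = 0.493) and SDH4 with 0.23 (limma adjusted p = 0.499). They did not share a sign. Under this reading the complex IV median was -0.049 and that of the ATP synthase 0.056, both opposite in sign to the medians of the values as deposited (0.039 and -0.061). By size alone, 0 members had a mean of at least 1.5-fold with the same sign on both arrays, against 38 ORFs, a background of 0.715%.

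Members come from short genes, with a median annotated span of 475.5 bp (180 to 1923 bp) against 1254 bp for 4999 tested ORFs with a span in R64. Across the 38 members span and log2 ratio had a Spearman rho of -0.36 on array 1 and 0.029 on array 2. Across the 4999 ORFs the coefficients were 0.046 and -0.038. They describe genes of the same hybridisations. None of the 38 overlaps another annotated gene in R64.

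Related genes outside the 38 were described by 8 lists of 113 genes, of which 95 had a value on both arrays. In limma 0 of these 95 passed as higher and 0 as lower after adjustment. At an unadjusted p of 0.05, 1 of the 95 was past the threshold, against 3.6% of all ORFs tested. With array 1 turned 0 passed after adjustment and 12 were past the unadjusted threshold, against 9.4% of all ORFs. The 7 mitochondrially coded subunits were not spotted. Of the 7 further nuclear subunits and ATP synthase inhibitors, 2 were measured. INH1, the inhibitor that blocks ATP hydrolysis, had -0.31 and 0.034, and STF2, a stabilising factor of the inhibitor complex, had 0.12 and -0.014.

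No regulator of respiratory transcription passed the test after adjustment. The 9 regulator genes had a median of -0.066 (-0.092 with array 1 turned). Of these, 0 were above 0 on both arrays and 2 below on both, against 14% and 26.8% of all ORFs tested. HAP4, the activating subunit whose amount limits the Hap complex, had -0.077 on array 1 and 0.17 on array 2. HAP1, the haem-dependent factor, had 0.40 and -0.53, a gap at percentile 99.2 of all ORFs. Its mean was -0.47 with array 1 turned. In that reading 2 of the 9 regulators were past an unadjusted p of 0.05 in limma, against 9.4% of all ORFs tested. ROX1 had -0.026 and -0.21, and HAP3, a DNA-binding subunit, had -0.11 and -0.066. The last 2 were below 0 on both arrays.

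Assembly factors, which insert cofactors or chaperone subunits, had a median of 0.0010 over 32 measured genes. Of these, 3 were above 0 on both arrays, 8 below on both and 21 of opposite sign. Over all ORFs tested the shares were 14%, 26.8% and 59.2%. COX15 and COX10, which make haem A for complex IV, had means of -0.22 ± 0.14 and -0.19 ± 0.095 (SD, n = 2; limma adjusted p = 1.00 for each). CBP6, which acts in cytochrome b synthesis, had 0.063 and 0.15, and CMC1, a copper-related factor of complex IV, had 0.078 and 0.11. The genes named had the lowest and highest means among those of like sign. Over the whole list the means ran from -0.26 to 0.24, both in genes of opposite signs. None of the 32 passed after adjustment. With array 1 turned, 6 were past an unadjusted p of 0.05 in limma, against 9.4% of all ORFs tested.

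The lists of genes that supply the chain had medians below 0 in the mean of both arrays, as all ORFs did. The 11 coenzyme Q synthesis genes had a median of -0.042 (0.035 with array 1 turned), and its lowest genes of like sign were COQ8, at -0.17 and -0.063, and COQ5, at -0.14 and -0.067. Over 12 TCA cycle genes the median was -0.029, with 3 above 0 on both arrays and 3 below on both. The shares over all ORFs tested were 14% and 26.8%. KGD1 and ACO1 had means of 0.10 and 0.083, and LSC1 and MDH1 had -0.14 and -0.13. The 12 measured carriers and other dehydrogenases had a median of -0.078 (0.12 with array 1 turned). Of these, 4 were below 0 on both arrays and 0 above, against 26.8% and 14% of all ORFs tested. POR1, the outer membrane porin, had -0.14 and -0.23, and DLD1, a lactate dehydrogenase that feeds cytochrome c, had -0.28 and -0.084.

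Glycolysis, the main source of ATP on glucose, had a median of -0.064 (-0.13 with array 1 turned) over 17 genes. Of these, 0 were above 0 on both arrays and 7 below on both, against 14% and 26.8% of all ORFs tested. GPM1, phosphoglycerate mutase, had -0.047 and -0.56, and in the values as deposited it was the single listed gene past an unadjusted p of 0.05 (limma adjusted p = 1.00). HXK1, a hexokinase, had -0.066 and -0.36. A further 7 glycolysis genes had virtually the same values on each array, as did 4 other ORFs. Without these genes the median of the other 10, in the values as deposited, was -0.16. The sign counts and the median with array 1 turned include the 7 genes. Whether the shared values measure expression was not tested. None of the 38 respiratory genes had that pair of values.

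**Figure D4:**
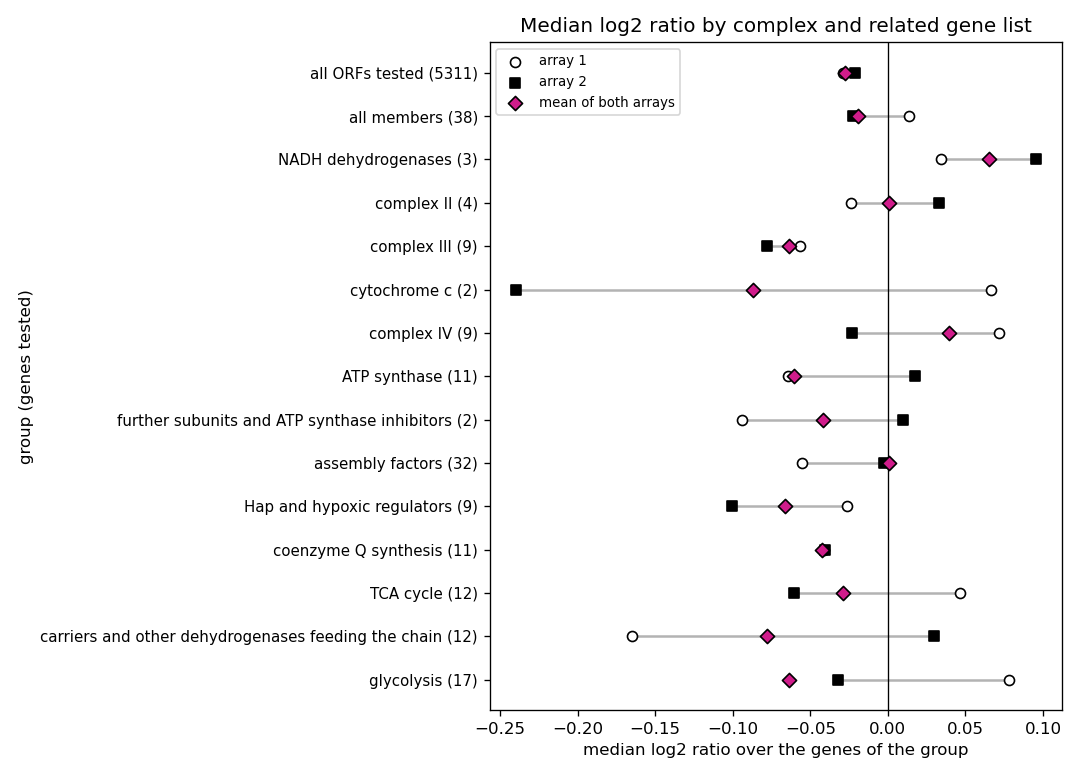
Median log2 ratio of each complex and related list on array 1 (open circles), array 2 (filled squares) and in the mean of both arrays (diamonds), with the number of genes tested in brackets. All medians of the mean lie within 0.1 of 0, and the arrays differ most for the cytochrome c pair.

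Array 1 gave a value for 5552 ORFs and array 2 for 5347, and 5311 had both. SHO1, MET17 and URA3 had no value on either array. LEU2 and HIS3, like MET17 and URA3 deleted or disrupted in BY4741, had values all the same. LEU2 was -0.30 on array 1 and 0.058 on array 2, and HIS3 was -0.24 and 0.026. HOG1, the kinase of the osmotic pathway, had -0.20 and 0.039. No intensities were used here, and with 2 arrays the precision is limited by their number.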

How the data were processed

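The authors deposited log2 ratios, 1 per ORF and two-colour array. The base was read from the values, since raising 2 to the values gave multiples of 0.0001 (to within 1% of this unit) in 100% of cases. First-strand cDNA was labelled with Cy3 or Cy5, per the labels' protocols. Scanner, background correction and normalization: not given in the sources used here. Of 6209 rows, 2 control rows were left out. Values were used as deposited (column medians -0.033 and -0.022).

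The mean of both arrays was compared with 0 in limma 3.58.1 (R 4.3.3; intercept only, eBayes) on all 5311 ORFs with both values, Benjamini-Hochberg adjusted over them, and the fit was tested on simulated data. No member was dropped or imputed. Of the ORF rows, 5654 matched a locus tag of R64, whose coordinates are not printed, since the sources name no build. Plots were drawn with matplotlib 3.10.9, and tables were made in Python 3.11.15 with scipy 1.17.1, numpy 2.4.6 and pandas 2.3.3.

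The members and lists were chosen with earlier results of these data known. The naming rule was to account for all members and, per related list, to name up to 2 genes with the highest and 2 with the lowest mean among those of like sign, plus HAP4, ROX1 and HAP1. INH1, STF2, the strain checks and the ORFs of shared value fall outside this rule. Alternatives were centring, scaling, array 1 turned, each array left out, ORFs with 1 value, robust variances, a prior of 4 degrees of freedom, an adjusted p of 0.1 and a 1.5-fold rule.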

Additional observations from a re-analysis of the deposited data

How the results depend on the processing

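The count of members past the test was 0 under every alternative that gives a count, with 3 at an unadjusted p of 0.05 when array 1 was turned. The count over all ORFs was 41; it was 0 with array 1 turned (499 at an unadjusted p of 0.05) and 0 with a prior of 4 degrees of freedom (115), and 38 to 61 otherwise. A single array leaves no residual degrees of freedom, so leaving out an array gave no count. The median of all members, -0.019, moved to 0.0084 with centred arrays and ran from -0.023 to 0.013 on single arrays. Complex III moved to -0.036 with centred arrays and to -0.0074 with array 1 turned, complex IV to -0.049 and the ATP synthase to 0.056 with array 1 turned, and the ATP synthase ran from -0.064 to 0.017 on single arrays.

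Single means near 0 changed sign with centring or scaling. Centring gave 0.024 for SDH4, 0.011 for RIP1, 0.0024 for CYC7, 0.0028 for COX4 and 0.0058 for ATP15, and scaling gave -0.00072 for SDH2 and 0.019 for SDH4. With array 1 turned 18 of 38 changed sign, also some with larger means, such as COX9 (0.16 as deposited). Those now above 0 were NDE2 (0.11), SDH4 (0.23), RIP1 (0.066), CYT1 (0.12), COX4 (0.097), ATP5 (0.19), ATP7 (0.13), ATP15 (0.084) and ATP16 (0.087). Those now below 0 were SDH2 (-0.056), QCR7 (-0.0074), COX6 (-0.044), COX7 (-0.049), COX8 (-0.054), COX9 (-0.18), COX12 (-0.46), ATP3 (-0.15) and ATP20 (-0.13). The cause was not tested. The widest member intervals ran from -0.60 to 0.76 with a prior of 4 degrees of freedom, from -0.45 to 0.67 with robust variances and from -0.73 to 0.45 with array 1 turned. Leaving out the glycolysis genes with shared values was chosen after the data were seen. No paired analysis was possible because both arrays belong to 1 group of ratios.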

Other observations

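A set of 11 ORFs had the same ratio on each array, within 0.0005 on the linear scale, at 1.1779 on array 1 and 0.9845 on array 2 for TDH3. Besides TDH3 they were TDH2, PGK1, ENO1, ENO2, FBA1, CDC19, PDC1, ADH1, TEF1 and TEF2, which encode highly expressed enzymes of glycolysis and fermentation and translation elongation factor 1-alpha. The set was noticed after the values were seen. None of the 38 respiratory genes was in it, and no intensities were used here with which to examine these spots.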
